A study of Mus musculus with 3 samples.

Results

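High endothelial cells (HEC) of the Peyer's patch (PP) carry transcripts of several genes for defence proteins beside the better known addressin genes. The genes described are 10 genes for defence proteins, not all of them found in HEC of each library. They are *Serpina1a*, *Serpina1b*, *Serpina1c*, *Serpina1d*, *Serpina1e*, *Bpifb5*, *Pglyrp1*, *Oit1*, *Ubd* and *Lcn2*, out of 31053 genes measured in each of 3 single-cell libraries. They were taken by symbol, and they were picked because several of them were known to lead HEC in these same libraries. Their levels by cell type are therefore a description and carry no test.

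The libraries hold single-cell RNA sequencing counts of PP cells sorted as blood endothelial cells (EC) from mice aged 6 to 10 weeks, isolated 14 to 19 days after tamoxifen. There were 1 control library, titled WT and labelled C57BL/6, and 2 libraries of EC-iCOUPOE mice, labelled CDH5(PAC)CreERT2;COUP-TFIIOE/OE. In EC-iCOUPOE mice, tamoxifen-activated Cre driven by the *Cdh5* promoter switches on a transgene for the venous transcription factor COUP-TFII, encoded by *Nr2f2*, throughout the endothelium. Cells of both sexes were pooled within a library. The study profiled tamoxifen-treated mice without the Cre as well as WT mice, and its methods name littermates lacking the Cre as controls, so whether the mice of the library titled WT received tamoxifen is not settled by the sources used here. The strain background of the EC-iCOUPOE mice, the day and the number of mice of each library are not given there either. Genotype, strain background and tamoxifen treatment cannot be told apart in the comparisons that follow. No test between genotypes was made, since the single control library has no spread of its own, and values are given with exact 95% counting intervals, which cover counting error only.

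HEC line the high endothelial venules through which lymphocytes leave the blood for lymph nodes and PP. They make sulfated, fucosylated sialomucin ligands for L-selectin, of which GlyCAM-1 (*Glycam1*) is a secreted scaffold, and in the gut they also carry the addressin MAdCAM-1 (*Madcam1*). The genes followed here belong to several defence families. The *Serpina1* genes are mouse copies of the gene for alpha-1-antitrypsin, a secreted inhibitor of neutrophil elastase. *Pglyrp1* encodes a secreted protein that binds bacterial peptidoglycan, *Bpifb5* a member of the BPI fold family that includes lipopolysaccharide-binding proteins, *Lcn2* lipocalin 2, which binds bacterial siderophores, and *Oit1* a secreted protein of the FAM3 family. *Ubd* encodes the ubiquitin-like modifier FAT10, an intracellular protein, so the description as secreted does not hold for it.

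The control library, EC-iCOUPOE replicate 1 and EC-iCOUPOE replicate 2 held 6080, 4959 and 1441 cell barcodes with 17341398, 17417260 and 3548983 unique molecular identifiers (UMIs), and 5335, 4744 and 1237 cells were kept. Clustering without the 10 genes, *Glycam1*, *Madcam1* and *Nr2f2* gave 446, 102 and 4 HEC. All 6 HEC markers were detected in HEC of the control library and of replicate 1, and *Glycam1* carried most of their summed level, at 72404 of 74443 CPM (UMI counts scaled to a common total of all UMIs in the class) in control HEC and at 13714 of 15798 CPM in those of replicate 1. *Chst4*, a sulfotransferase of the L-selectin ligands, was near 0 in both, at 1.53 and 9.14 CPM. The cluster was named by these 6 markers, so their detection is not an independent check of the name. *Nr2f2* stood at 147.3, 669.6 and 839.1 CPM in HEC of the control library, replicate 1 and replicate 2. A neighbouring EC cluster of 124, 487 and 29 cells matched no marker list and is named here by its leading gene, *Colec12*. HEC of replicate 2 (4 cells) held 3 of the 6 HEC markers, with *Glycam1* at 909.0 CPM and *Fut7*, *Chst4* and *Chst2* at 0, and are given as values only. Despite the sort, the control library held 2481 fibroblasts, 205 glial cells and 132 pericytes or smooth muscle cells. Cells named lymphatic EC were found in replicates 1 and 2 (952 and 118 cells) and not as a class in the control library. Those of replicate 1 were 814 cells of a cluster led by *Mmrn1* and 138 cells of another, led by *Zg16*, *Fabp6* and *Reg3b*. Cells of that other cluster in replicate 2 (18 cells) were named epithelial. Its leading genes in replicate 1 included the epithelial marker *Krt8*, so the name lymphatic EC is uncertain for these 138 cells. Of the filtered barcodes, 10 were shared by the control library and replicate 2, and 0 by the other pairs.

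In the control library 8 of the 10 genes were at their highest level, by point value, in HEC among cell classes of at least 20 cells, with all fibroblasts taken as 1 class, the exceptions being *Serpina1e* and *Lcn2*. With the fibroblasts split into their clusters, *Serpina1a* was higher in those led by *Ccl19*. For *Serpina1a* and *Serpina1d* HEC were not told from dividing EC, at 87.4% (31.3 to 197.5%, 6 UMIs) and 74.65% (29.4 to 158.3%, 7 UMIs) of the HEC level. Nor were they told from the 40 erythroid cells, with 0 and 1 UMIs of these genes. *Serpina1d* in HEC was also not told from the Colec12 cluster (63.9%, 31.1 to 118.3%, 11 UMIs) or Ccl19 fibroblasts (70.6%, 46.6 to 104.3%, 33 UMIs). Dividing EC of this library also carried *Glycam1*, at 29258 CPM. Levels in HEC, on the CPM scale, fell in the order *Ubd* at 5042.5 CPM (95% interval 4966 to 5120), *Serpina1b* at 3916 CPM (3848 to 3984), *Pglyrp1* at 668.2 CPM (640.5 to 696.8), *Oit1* at 243.2 CPM (226.6 to 260.7), *Bpifb5* at 108.5 CPM (97.5 to 120.4), *Serpina1c* at 92.3 CPM (82.2 to 103.3), *Serpina1d* at 38.8 CPM (32.4 to 46.2), *Serpina1a* at 28.4 CPM (22.9 to 34.8), *Lcn2* at 2.14 CPM (0.86 to 4.41) and *Serpina1e* at 0. The intervals of *Bpifb5* and *Serpina1c* overlapped, as did those of *Serpina1d* and *Serpina1a* and those of *Lcn2* and *Serpina1e* (0 to 1.13 CPM), and those of the other neighbours in this order did not. Because 3′ counting reads 1 tag per molecule, these are levels per molecule and not per transcript length. *Ubd* ranked 22nd and *Serpina1b* 39th among the 13596 genes with a UMI in HEC. By the ratio of HEC to all other cells, *Ubd*, *Pglyrp1* and *Oit1* ranked 2nd, 3rd and 5th of 5835 genes with at least 50 UMIs in HEC, *Glycam1* being 1st and *Fut7*, a fucosyltransferase of the L-selectin ligands, 4th.

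**Figure D1:**
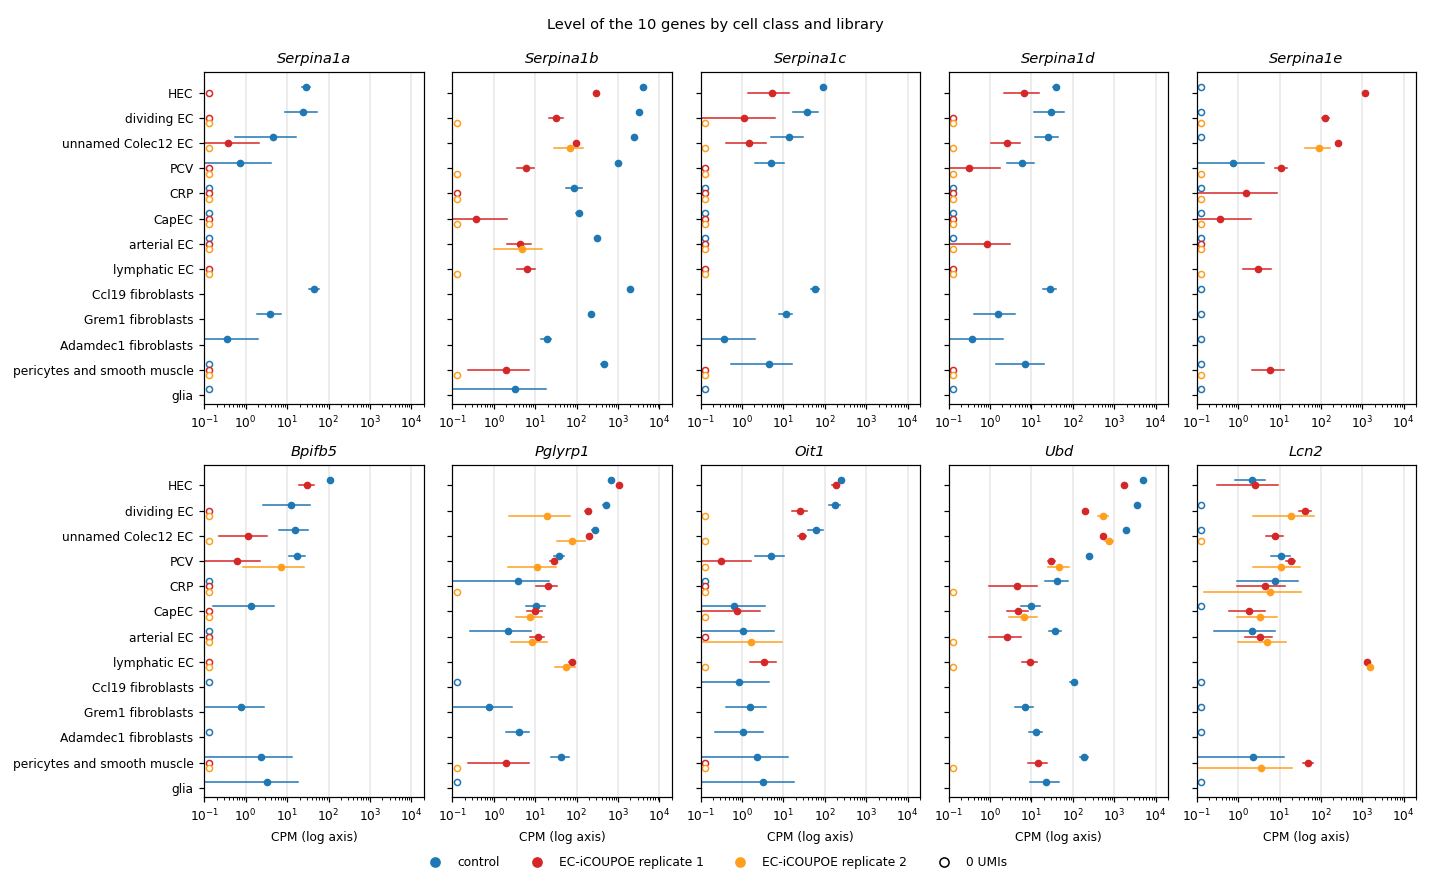
Level of each of the 10 genes, in CPM on a log axis, by cell class in the control library (blue) and in EC-iCOUPOE replicates 1 (red) and 2 (orange); lines are exact 95% counting intervals and open circles mark 0 UMIs, and HEC of replicate 2 (4 cells) are not drawn. *Serpina1b* is high in control HEC and in Ccl19 fibroblasts, *Serpina1e* appears in the EC-iCOUPOE libraries, and *Lcn2* lies in their lymphatic EC.

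The 5 *Serpina1* genes lie in a row on chromosome 12 and are close copies, so the first question was how well their reads can be told apart. In GENCODE on GRCm38, *Serpina1b* (ENSMUSG00000071178, chr12:103728156-103830373, minus strand) spans the locus of *Serpina1d* (ENSMUSG00000071177, chr12:103763594-103773592), and *Serpina1e* (ENSMUSG00000072849) lies at chr12:103946931-103958975 on the same strand. The other genes are single loci on other chromosomes, *Ubd* at chr17:37193892-37196095, *Pglyrp1* at chr7:18871331-18890459 and *Bpifb5* at chr2:154223742-154240902 on the plus strand, and *Oit1* at chr14:8348937-8378754 and *Lcn2* at chr2:32384633-32388252 on the minus strand. Of all 98-base windows in the last 400 bases of each reference transcript, the length of the cDNA read, 97.7% for *Serpina1b* and 100% for *Serpina1e* occurred in no other gene, and the lowest value was 87.1%, for *Serpina1a*. *Serpina1b* and *Serpina1e* shared 0 of 303 windows, and *Serpina1b* shared 7 with *Serpina1d*. These values hold for the reference genome, and how reads of alleles that differ from it would be assigned was not tested.

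The RefSeq promoters of *Serpina1b* and *Serpina1e* are shown because the EC-iCOUPOE libraries and the control library differed in which of these copies they held, and that of *Ubd* because it was the most abundant of the 10 genes in HEC. Each is the 250 bases before the RefSeq transcription start site on GRCm38.p6, written 5′ to 3′ on the strand of the gene. The intervals are chr12:103738190-103738439 (minus strand), chr12:103956898-103957147 (minus strand) and chr17:37193642-37193891 (plus strand). Capitals mark matches, on either strand, to AAGTG, the core of the NKX homeodomain motif, or to TGACC, a half-site of COUP-TFII.
Serpina1b: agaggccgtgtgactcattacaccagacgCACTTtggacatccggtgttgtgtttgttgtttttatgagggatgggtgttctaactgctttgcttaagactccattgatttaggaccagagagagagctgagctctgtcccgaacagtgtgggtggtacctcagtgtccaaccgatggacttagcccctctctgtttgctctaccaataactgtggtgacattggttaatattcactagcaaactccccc
Serpina1e: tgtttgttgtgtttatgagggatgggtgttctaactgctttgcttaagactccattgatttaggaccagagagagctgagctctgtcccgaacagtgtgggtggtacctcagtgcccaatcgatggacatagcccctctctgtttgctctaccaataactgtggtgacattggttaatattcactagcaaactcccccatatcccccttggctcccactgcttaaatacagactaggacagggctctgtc
Ubd: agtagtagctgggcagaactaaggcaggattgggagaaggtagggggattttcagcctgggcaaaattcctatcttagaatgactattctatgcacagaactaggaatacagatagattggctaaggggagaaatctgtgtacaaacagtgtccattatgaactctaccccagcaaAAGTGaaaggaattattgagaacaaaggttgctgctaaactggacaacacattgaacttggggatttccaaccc
The 300-base promoters of *Serpina1b* and *Serpina1e* were 97.6% identical over the 250 columns where they aligned, with 4 mismatches and 2 gap columns, their annotated start sites being offset against each other. Among the 10 promoters 6 held AAGTG on either strand (*Serpina1a*, *Serpina1b*, *Serpina1d*, *Bpifb5*, *Pglyrp1* and *Ubd*), beside 46.4% of all 32851 promoters of the same length. TGACC was in 3 of 10 (*Serpina1e*, after the start site and so outside the printed bases, *Bpifb5* and *Oit1*), beside 40.5% of all promoters. A match is a description of the letters and not of binding.

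*Serpina1b* made up almost all *Serpina1* signal of the control library. In control HEC it accounted for 12816 of 13338 *Serpina1* UMIs (96.1%, Clopper-Pearson interval 95.7 to 96.4%). Its level fell from 3916 CPM in HEC to 3141 CPM in the 25 dividing EC, 2417 CPM in the Colec12 cluster, 1021 CPM in post-capillary venules (PCV), 307.0 CPM in arterial EC, 112.6 CPM in capillary EC (CapEC) and 88.3 CPM in capillary resident progenitors (CRP). Outside the endothelium it reached 1969 CPM in fibroblasts led by *Ccl19*, the chemokine of lymphoid stroma. *Serpina1a*, *Serpina1c* and *Serpina1d* were also present in these Ccl19 fibroblasts, at 44.8, 59.0 and 27.4 CPM, against 28.4, 92.3 and 38.8 CPM in HEC, so that *Serpina1a* was the member whose level in this fibroblast group exceeded that in HEC. *Serpina1e* had 1 UMI among all cells of the control library, in PCV, and none in HEC, where 0 of 3273002 UMIs allows a level of up to 0.917 CPM.

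*Ubd* was more narrowly distributed than *Serpina1b* in the control library. HEC held 87.4% of its UMIs (86.9 to 87.9%) and 64.9% of those of *Serpina1b* (64.3 to 65.6%). Its level was 5042.5 CPM in HEC, 3451 CPM in dividing EC, 1943 CPM in the Colec12 cluster, 249.2 CPM in PCV and 9.87 CPM in CapEC. The shares of *Oit1*, *Bpifb5* and *Pglyrp1* UMIs that lay in HEC were 89.9%, 89.4% and 86.2%. The control library had no lymphatic, epithelial or myeloid class, and such shares also follow the number of cells in each class. In replicate 1 they were 55.6%, 74.2% and 42.5%, with 10.1% of *Pglyrp1* UMIs in lymphatic EC (cluster led by *Zg16* included). Epithelial cells of replicate 2 held 23 of 74 *Pglyrp1* UMIs and 6 of 7 *Oit1* UMIs. In PCV of the control library *Pglyrp1* stood at 37.6 CPM, *Bpifb5* at 17.7 CPM and *Oit1* at 5.16 CPM, each well below its level in HEC.

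*Lcn2* did not follow the other genes. It had 27 UMIs in all cells of the control library, 7 of them in HEC and 15 in PCV. In the EC-iCOUPOE libraries 94.3% of its UMIs in replicate 1 and 96.6% in replicate 2 lay in lymphatic EC, where its level was 1294.5 CPM (1251 to 1339) and 1552 CPM (1402.5 to 1713), against 2.61 CPM in HEC and 18.9 CPM in PCV of replicate 1. After thinning each cell to 1000 UMIs, 66.0% of the lymphatic EC of replicate 1 and 68.6% of those of replicate 2 held an *Lcn2* UMI. These cells carried the lymphatic factor *Prox1* at 441.3 and 370.3 CPM. The values of replicate 1 include the 138 cells of the cluster led by *Zg16* and were not measured without them. The control library had no class of lymphatic EC, so *Lcn2* in lymphatic EC could not be compared between genotypes.

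In HEC the genotypes were compared between the control library and EC-iCOUPOE replicate 1. Of the 10 genes 9 had at least 50 UMIs in either library, and 7 of them differed at least 2-fold, 6 lower and 1 higher in replicate 1. Over all 5846 genes measured this way, 4.53% were at least 2-fold lower and 6.06% at least 2-fold higher. The median log2 ratio was -1.85 over the 9 genes and 0.16 over all genes. All *Serpina1* copies are among the 9 and were counted as separate genes, although they lie in a row. Their sum had a log2 ratio of -1.46, and the count with the copies summed is given in the last section. Several of these genes were picked as leaders of HEC, which the control library dominates, so the direction of this count is not independent evidence.

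*Serpina1b* stood at 3916 CPM in HEC of the control library, 295.0 CPM in replicate 1 and 0 in replicate 2, where a floor of 3 UMIs is 209.8 CPM. It was 13.3-fold lower in replicate 1 (log2 ratio -3.73, -3.93 to -3.54). The 0 UMIs of replicate 2 rest on 4 cells and are given as a value only. *Serpina1c* went from 92.3 to 5.22 CPM (log2 ratio -4.14, -6.03 to -2.77) and *Serpina1d* from 38.8 to 6.53 CPM (log2 ratio -2.57, -4.22 to -1.31). *Serpina1a* went from 28.4 CPM to 0 UMIs in replicate 1, 7.26-fold lower with the 0 set at a floor of 3 UMIs (upper 95% end of the log2 ratio -2.53). All 4 copies that control HEC held were therefore lower in replicate 1.

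*Serpina1e* went the other way. It was at 0 UMIs in control HEC, at 1176 CPM (1100.5 to 1255; 901 UMIs) in replicate 1 and at 3 UMIs in the 4 HEC of replicate 2. With the control library set at a floor of 3 UMIs it was 1283-fold higher in replicate 1 (lower 95% end of the log2 ratio 10.02). The sum of the 5 copies, which does not depend on which copy a counted read was given to, was 4075 CPM in the control library and 1483 CPM in replicate 1 (log2 ratio -1.46, -1.55 to -1.37). Whether reads that fit more than 1 gene, or come from alleles unlike the reference, are missing from the sum was not tested. The difference in the sum was thus smaller than that in *Serpina1b*.

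*Ubd* was at 5042.5, 1677 and 3147 CPM in HEC of the control library, replicate 1 and replicate 2. It was 3.01-fold lower in replicate 1 (log2 ratio -1.59, -1.67 to -1.51). The replicate 2 value also lay below the control library, but it rests on 45 UMIs in 4 cells. *Bpifb5* went from 108.5 to 30.02 CPM in replicate 1 (log2 ratio -1.85, -2.53 to -1.24). *Oit1* was at 243.2 and 182.7 CPM (log2 ratio -0.41, -0.68 to -0.15), under the 2-fold rule.

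*Pglyrp1* was at 668.2, 1073 and 699.3 CPM in the control library, replicate 1 and replicate 2. Its log2 ratio in replicate 1 was 0.68 (0.57 to 0.80) with HEC as defined here, but -0.45 when finer clustering moved many Colec12 cells of replicate 1 into HEC (435 cells) and -0.69 when each library was clustered on its own (600 cells). The direction of the *Pglyrp1* difference therefore rests on where HEC end. For comparison, *Glycam1* was 5.28-fold lower in replicate 1 (log2 ratio -2.40) and *Madcam1* had a log2 ratio of -0.42. Scaling by TMM shifted the log2 ratios of all genes in HEC by -0.29, which put *Pglyrp1* at 0.39 and *Oit1* at -0.70.

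**Figure D2:**
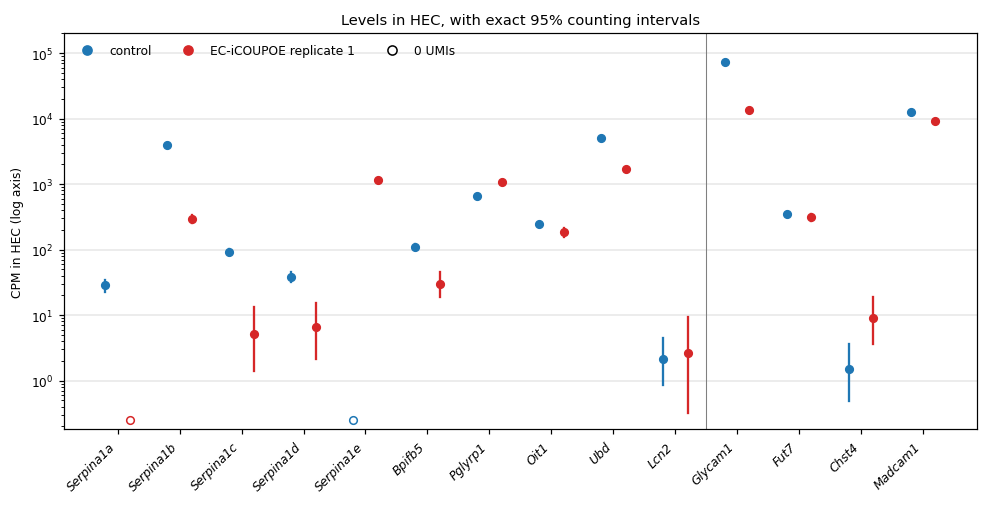
Level in HEC, in CPM on a log axis, of the 10 genes and of 4 HEC genes (right of the line) in the control library (blue, 446 cells) and EC-iCOUPOE replicate 1 (red, 102 cells); bars are exact 95% counting intervals and open circles mark 0 UMIs. *Serpina1b* drops from 3916 to 295.0 CPM while *Serpina1e* appears at 1176 CPM, and *Pglyrp1* lies slightly higher in replicate 1.

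*Serpina1e* outnumbered *Serpina1b* in each of the 4 EC classes of replicate 1 with at least 50 *Serpina1* UMIs. *Serpina1e* made up 79.3% of *Serpina1* UMIs in HEC of replicate 1 (76.8 to 81.6%), 79.4% in dividing EC (71.8 to 85.8%), 72.3% in the Colec12 cluster (69.4 to 75.1%) and 63.2% in PCV (49.3 to 75.6%). The Colec12 cluster of replicate 2 had 9 of 16 *Serpina1* UMIs from *Serpina1e* (56.3%, 29.9 to 80.2%). In the control library the share was 0% in HEC. Arterial EC of replicate 1 held 10 UMIs of *Serpina1b* and 0 of *Serpina1e* among 12 *Serpina1* UMIs. Its lymphatic EC, with the cells of the cluster led by *Zg16* included, held 16 and 8 among 24. The 30 myeloid cells of replicate 1 had 16 of 20 from *Serpina1e* (80%). These 16 UMIs were no more than the 21.01 that would come with the *Glycam1* UMIs of these cells at the ratio found in HEC. The ratio of observed to expected was 0.762 (0.435 to 1.24). *Glycam1* in these myeloid cells was at 11.9% of its HEC level, against 0.0109% in CapEC of replicate 1. Whether these UMIs were free HEC RNA or came from HEC in the same droplets was not tested. In HEC of replicate 1 thinned to 1000 UMIs, 22 cells held both copies where independent detection would give 15.04.

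**Figure D3:**
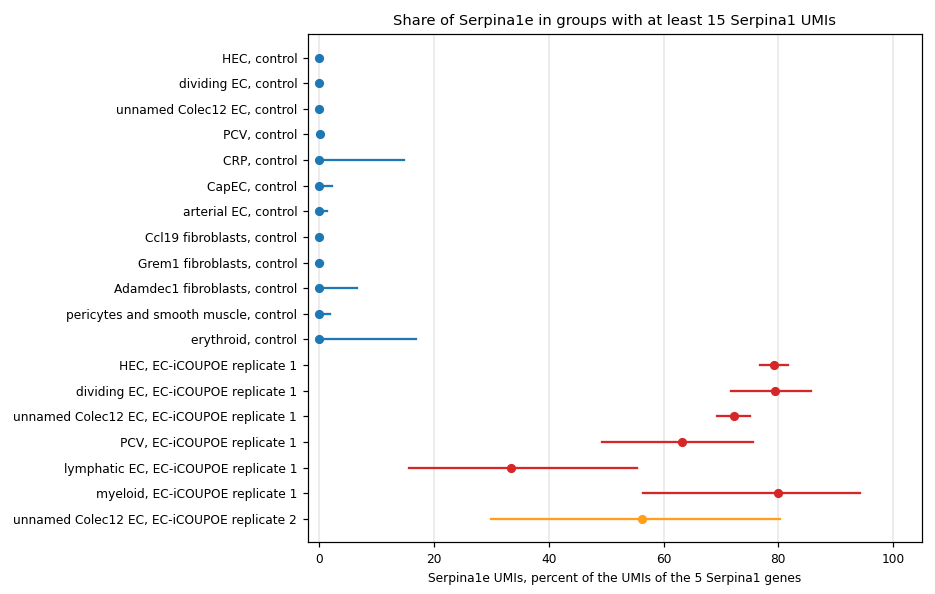
Share of *Serpina1e* among the UMIs of the 5 *Serpina1* genes, in percent, for each cell class and library with at least 15 such UMIs; lines are exact 95% binomial intervals. Classes of the control library (blue) lie at or next to 0%. Those of EC-iCOUPOE replicates 1 (red) and 2 (orange) lie between 33.3% (lymphatic EC) and 79.4% (dividing EC), apart from myeloid cells at 80%. *Serpina1e* of the myeloid cells was no more than expected from their *Glycam1* UMIs.

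The Colec12 cluster had the highest levels of several of these genes after HEC and dividing EC in the control library, and it held cells of all 3 libraries. *Ubd* was at 1943, 543.0 and 755.6 CPM in this cluster of the control library, replicate 1 and replicate 2, with log2 ratios of -1.84 and -1.36 (mean -1.60 ± 0.34, SD, n = 2). *Serpina1b* was at 2417, 96.7 and 69.6 CPM (mean log2 ratio -4.88 ± 0.34, SD, n = 2). *Serpina1e* was at 0, 264.1 and 89.5 CPM. *Pglyrp1* was at 279.5, 202.0 and 79.5 CPM (mean log2 ratio -1.14 ± 0.95, SD, n = 2), a spread nearly as large as the difference. In the same cells *Glycam1* was at 8240, 279.3 and 0 CPM, and *Madcam1* at 5329, 6232 and 6453 CPM.

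In PCV, which had at least 95 cells in each library, 4 of the 10 genes had at least 50 UMIs in a library, and 2 of them were at least 2-fold lower in both EC-iCOUPOE libraries, none being higher. Over all 6772 genes measured in PCV, 1.59% were lower and 3.12% higher by this rule. *Serpina1b* was at 1021, 6.11 and 0 CPM in the control library, replicate 1 and replicate 2. It was 167.2-fold lower in replicate 1. With replicate 2 set at a floor of 3 UMIs it was 93.7-fold lower there (upper 95% end of the log2 ratio -6.25). *Ubd* was at 249.2, 30.2 and 47.2 CPM (log2 ratios -3.04 and -2.40). *Pglyrp1* was at 37.6, 28.1 and 10.9 CPM and *Lcn2* at 11.1, 18.9 and 10.9 CPM, neither past the rule in both libraries. *Glycam1*, a gene of HEC, was also lower in PCV, at 205.7, 9.77 and 0 CPM, and the part of free or carried-over HEC RNA in these PCV values was not tested. In the 270 control PCV with no *Glycam1* UMI, *Serpina1b* still stood at 770.1 CPM and *Ubd* at 139.8 CPM, against 4.02 and 26.9 CPM in 774 such PCV of replicate 1.

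Because free RNA from broken HEC gives UMIs in cells that do not express a gene, the level of each gene outside HEC was set beside that of *Glycam1* in the same cells. RNA from 1 source keeps its genes in 1 ratio, so a gene whose level, as a percent of its level in HEC, was near that of *Glycam1* was read as background. *Glycam1* in non-endothelial cells of the control library stood at 0.302% of its HEC level, the *Glycam1* share. The 132 pericytes or smooth muscle cells held 756 of its 1741 UMIs in these cells, at 2.40% of the HEC level. The share was 0.176% in fibroblasts and 0.271% in glia. *Madcam1* in all non-endothelial cells stood at 0.580%, 1.92 times the share of 0.302% (1.77 to 2.09), so these 2 HEC genes did not keep 1 ratio. *Pglyrp1* and *Ubd* were at 1.99 times (1.36 to 2.81) and 2.28 times (2.02 to 2.56) the share. The source of excesses of this size was not tested. Intervals of these multiples cover the counting error of the gene's own UMIs outside HEC only. For the 8 genes with at least 50 UMIs in control HEC, the median percent in the same 2836 cells was 5.49%. Of these 8, 6 were above the *Glycam1* share beyond the counting error of their own UMIs in these cells. No gene lay near this median. *Serpina1a* to *Serpina1d* were at 10.28% to 29.15%. *Oit1*, *Pglyrp1*, *Ubd* and *Bpifb5* were at 0.568%, 0.601%, 0.687% and 0.694%, and of these *Pglyrp1* and *Ubd* were above the share. This split differed between classes. In fibroblasts alone, *Oit1* (2.93 times their own share, 1.34 to 5.55) and *Ubd* (2.85 times, 2.45 to 3.30) were above it. *Pglyrp1* was not told from it there (1.66 times, 0.905 to 2.78). Of the 32 *Pglyrp1* UMIs in the merged cells, 18 lay in pericytes or smooth muscle cells.

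The excess was uneven over cell types. In pericytes or smooth muscle cells the median was 4.38%, and 4 of 8 genes were above their *Glycam1* share of 2.40%. In glia the median was 0.0417%, and 0 of 8 genes differed from the *Glycam1* share of 0.271%. Depth limits this count. For *Serpina1a*, *Serpina1c*, *Serpina1d*, *Bpifb5*, *Oit1* and *Pglyrp1*, 0.0236 to 0.554 UMIs were expected at that share, so 0 UMIs could not lie below it. The median itself rests on 1 UMI of *Serpina1b*. *Serpina1b* there had 1 UMI in 205 cells (0.0835% of its HEC level) and *Ubd* 7 UMIs (0.454%). In Adamdec1 fibroblasts *Serpina1b* was at 0.480% and *Glycam1* at 0.197%, in Grem1 fibroblasts at 5.64% and 0.143%, and in Ccl19 fibroblasts at 50.3% (48.1 to 52.5%) and 0.146%. In Ccl19 fibroblasts 5 of 8 genes were above the *Glycam1* share, namely *Serpina1a* to *Serpina1d*, at 50.3% to 157.8%, and *Ubd*, at 2.06%. *Madcam1* was above it there too, at 0.996%. *Pglyrp1* and *Bpifb5* had 0 UMIs and *Oit1* had 1 in these 312 cells.

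The Ccl19 fibroblasts carried all 7 fibroblast markers at a summed 18200 CPM and 4 of 6 HEC markers at 925.0 CPM. They carried all 9 blood EC markers at 546.4 CPM, against 5635 CPM in control HEC. Most of their HEC marker sum was *Enpp2*, and most of their blood EC marker sum was *Plvap*. Each of the other blood EC markers was at a lower percent of its HEC level than *Plvap*. These sums therefore do not measure the part of endothelial RNA in the Ccl19 fibroblasts. That part in their *Serpina1b* level was not tested beyond the *Glycam1* share. After thinning to 1000 UMIs per cell, 72.4% of Ccl19 fibroblasts held a *Serpina1b* UMI (67.1 to 77.3%; median depth 3788.5 UMIs before thinning), against 0.488% of glia (median depth 1385 UMIs). The 10% of these fibroblasts with most *Serpina1b* held 29.7% of its UMIs, so the signal was spread over the cells. *Serpina1a* to *Serpina1d* were in the UMI totals of Grem1 fibroblasts too, where *Serpina1b* made up 92.9% of the sum. No fibroblast class was found in the EC-iCOUPOE libraries.

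**Figure D4:**
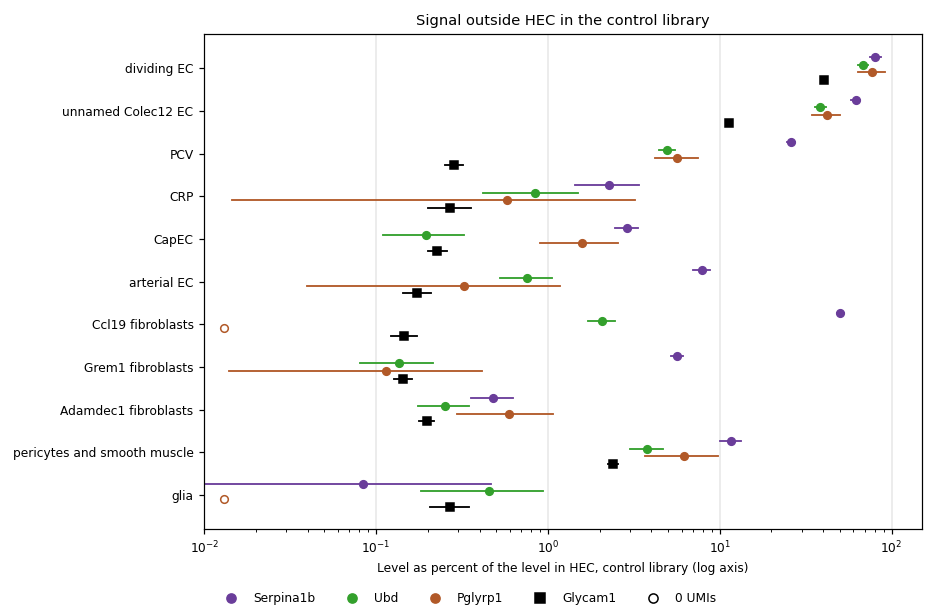
Level of *Serpina1b*, *Ubd*, *Pglyrp1* and *Glycam1* in other cell classes of the control library as a percent of the level in HEC, on a log axis; lines are exact 95% counting intervals and open circles mark 0 UMIs. *Serpina1b* lies far to the right of *Glycam1* in Ccl19 fibroblasts (50.3% against 0.146%) and PCV (26.1% against 0.284%), while in glia the intervals of all 3 genes reach that of *Glycam1*.

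Among other EC of the control library the same reading separated the genes. In PCV *Serpina1b* was at 26.1% of its HEC level, *Bpifb5* at 16.3%, *Pglyrp1* at 5.63% and *Ubd* at 4.94%, all above *Glycam1* at 0.284%, and *Madcam1* was at 32.3%. In arterial EC *Serpina1b* was at 7.84% and *Glycam1* at 0.173%. In CapEC *Ubd* was at 0.196% and *Glycam1* at 0.227%, so *Ubd* there was not told from background, whereas *Serpina1b* was at 2.88%. *Pglyrp1* in CapEC was at 1.58%, above the *Glycam1* share (3.96 to 11.3 times). *Ubd* was above that share in arterial EC, at 0.756% (3.04 to 6.08 times), and in CRP, at 0.837% (1.55 to 5.54 times). In each of CRP, CapEC and arterial EC, 2 of 8 genes were above the share. The median depth of a control CapEC was 1457 UMIs and that of a control HEC 7278 UMIs.

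Detection in single HEC was measured at a fixed depth. After thinning to 1000 UMIs per cell, *Serpina1b* was found in 94.8% of control HEC (92.4 to 96.7%) and in 25.5% of HEC of replicate 1 (17.4 to 35.1%). *Ubd* was found in 92.2% and 54.9%, *Pglyrp1* in 45.3% and 61.8%, *Oit1* in 18.8% and 11.8% and *Bpifb5* in 10.1% and 3.92%. *Serpina1e* was found in 0% of control HEC and in 57.8% of HEC of replicate 1 (47.7 to 67.6%). Without thinning, *Serpina1b* was in 99.1% and 62.7% of HEC and *Serpina1e* in 0% and 77.5%. In glia the thinned shares were 0.488% for *Serpina1b*, 2.93% for *Ubd* and 0% for *Pglyrp1*. *Bpifb5* was less evenly spread, with 62.3% of its UMIs in the 10% of control HEC that held most of it, against 20.5% for *Serpina1b*. In control HEC 390 cells held both *Serpina1b* and *Ubd* where independent detection would give 389.8, and 15 held both *Bpifb5* and *Oit1* where it would give 8.48.

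The sexes were unevenly represented among HEC. By *Xist* and Y-linked transcripts, the control library had 380 female and 20 male HEC and replicate 1 had 23 female and 49 male HEC, the rest being undecided. *Bpifb5* was at 414.5 CPM (301.2 to 556.5) in male and 90.6 CPM (79.96 to 102.3) in female HEC of the control library, and at 51.7 CPM and 0 in male and female HEC of replicate 1. The male control value rests on 44 UMIs in 20 cells, the intervals leave out the uneven spread of *Bpifb5* over cells, and the number of mice of each sex is not known, so a difference between the sexes was not tested. *Serpina1b* was at 4739 and 3919 CPM in male and female control HEC and at 220.3 and 305.9 CPM in those of replicate 1. *Serpina1e* was at 0 in both sexes of the control library and at 1023 and 1196 CPM in male and female HEC of replicate 1, so its difference between the libraries held in each sex. *Ubd* was lower in replicate 1 in each sex, at 3853 against 1686 CPM in male and 5154 against 1928 CPM in female HEC.

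The genes whose pattern over 11 classes of the control library was most like that of each member were ranked by Pearson's r of log2(CPM + 10), as a description over classes that share 1 library. *Pglyrp1* was most like *Ubd* (r = 0.977), followed by *Fam120a* (r = 0.968) and *Glycam1* (r = 0.962). *Oit1* was most like *Ackr2*, an atypical chemokine receptor (r = 0.991), and *Reg3g*, an antimicrobial lectin at 18.0 CPM in HEC (r = 0.980). *Ubd* was followed by *Stra6*, the receptor of retinol-binding protein (r = 0.969), and *Bpifb5* by *Dennd2d* (r = 0.944). The summed *Serpina1* genes were most like the ribosomal protein genes *Rpl7a* (r = 0.963) and *Rpl39* (r = 0.953). *Lcn2*, with 27 UMIs in the control library, had its nearest gene at r = 0.809.

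Beyond the 10 genes, 97 further defence genes and inducers were listed, and 31 of them had at least 50 UMIs in HEC. In replicate 1, 9 of these were lower and 2 higher by the 2-fold rule (median log2 ratio -0.17), where over all genes 4.53% were lower and 6.06% higher (median 0.16). In PCV 3 of 27 were lower and 1 higher, where over all genes the shares were 1.59% and 3.12%. Of the 9 other serpins measured, 4 were lower and 0 higher. *Serpinb9*, an inhibitor of granzyme B, was at 594.3 and 372.0 CPM in the control library and replicate 1 (log2 ratio -0.68), *Serpinb1a* at 506.0 and 899.3 CPM (0.83), *Serpina3g* at 406.0 and 193.2 CPM (-1.07) and *Serpinb8* at 18.3 and 2.61 CPM (-2.81). Of 4 complement genes 2 were lower, among them *Cfb*, complement factor B, at 179.0 and 40.5 CPM (-2.15). The lipocalin family member *Ptgds* was at 54.4 and 7.83 CPM (-2.80) and *Reg3g* at 18.0 and 3.92 CPM (-2.20). In HEC of replicate 1 the floor of 3 UMIs is 3.92 CPM, so the ratios of *Serpinb8*, *Ptgds* and *Reg3g* rest on few UMIs there. Neither the 5 ubiquitin-like modifiers nor the measured members of the BPI fold (2), peptidoglycan recognition and lysozyme (1) and FAM3 (2) lists passed 2-fold. Of 6 genes of cytokine pathways known to induce *Lcn2* and *Ubd* in other cells, 2 were higher and 1 lower. Among those called, *Il1r1*, an interleukin-1 receptor, was at 60.8 and 165.8 CPM (1.45) and *Nfkbiz* at 250.2 and 114.9 CPM (-1.12). The other gene called higher is not named here. *Nfkbia*, at 1496 and 1296 CPM (-0.21), did not pass 2-fold.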

How the data were processed

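The authors aligned reads with Cell Ranger to the mm10 transcriptome (version 3.0.2 per the labels; the header of replicate 1 gives 3.1.0). The deposited values are raw UMI counts per gene and cell barcode, without scaling. Cells with fewer than 500 genes, fewer than 1000 UMIs or over 10% mitochondrial UMIs were dropped. Doublets called by Scrublet in scanpy 1.11.5 (138, 6 and 6 cells in the control library and replicates 1 and 2, at an expected rate of 6%) were removed, and with so few calls in replicates 1 and 2 doublets may remain there. Libraries were integrated and clustered in 2 rounds with Seurat 5.3.0 at resolution 1, without the genes described, and clusters were named from marker lists. UMIs were summed by class and library and given as CPM with exact Poisson intervals. Ratios of levels have exact conditional intervals, and 0 was set at 3 UMIs for bounds. Ratios of observed UMIs to those expected from *Glycam1* have Poisson intervals of the observed UMIs only. The counting error of the expected UMIs is left out of them. Genes with at least 50 UMIs in a compared library were called at 2-fold, sex-linked genes left out. TMM scaling used edgeR 4.0.16. Depth limits HEC of replicate 2 to a floor of 209.8 CPM. The size rule was tested on simulated data. Coordinates come from GENCODE on GRCm38 and RefSeq on GRCm38.p6, where all 10 symbols matched a promoter. The text names the 10 genes, 4 HEC genes, per member the 3 genes of most similar pattern, and defence genes with the highest level or largest log2 ratio (up to 6 each). Genes and lists were chosen with earlier results of these data known. Alternatives varied resolution, integration, doublets, cell and count filters, scaling, averaging, the fold and the background cells.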

Additional observations from a re-analysis of the deposited data

How the results depend on the processing

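The number of genes highest in HEC (8) stayed between 7 and 8 under 9 alternatives. The median log2 ratio in HEC (-1.85) was -2.98 at resolution 1.6, -3.38 with libraries clustered separately, -1.13 after thinning to 1000 UMIs, where 6 genes could be measured, and, as alternatives chosen after seeing the data, -2.76 in female HEC (23 cells in replicate 1) and -1.46 with the *Serpina1* genes summed. The number of genes past 2-fold in HEC (7) was 4 after thinning and 3 of 5 with the *Serpina1* genes summed. The median percent of the HEC level outside the endothelium (5.49%) was 0.715% after thinning and 0% in the 18 lymphocyte-like cells alone, and, chosen after seeing the data, 0.0417% in glia alone and 0.511% in fibroblasts without the Ccl19 and Grem1 groups. Apart from the count of summed genes and of thinned cells, in which fewer genes or UMIs enter, the cause of these shifts was not tested. The median of the mean log2 ratios in PCV (-1.91) ranged from -2.09 to -1.73 when EC-iCOUPOE replicate 1 or 2 was left out. No paired analysis was possible because the control library carries no replicate number. With 4 HEC in replicate 2, differences in HEC rest on 1 library per genotype.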
